A study of Homo sapiens with 6 samples.

Results

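Collagen chains are the protein strands that wind around one another to form the collagens of the extracellular matrix. All genes whose symbol is COL, a type number, A and a chain number were taken from the transcript count table, which gave 33 collagen chain genes among 31768 genes and 195 of 153848 transcripts. Of the 33 genes, 18 reached 10 or more counts in at least 3 libraries. These 18 passed the filter on low counts and were tested among 11118 genes, and 83 of their transcripts were tested among 74843. The cells were HMC3 (also written HMC-3), an immortalized human microglial cell line grown in medium with fetal bovine serum. In 3 independent cultures the cells received 15 Gy of X-rays from a linear accelerator and in 3 control cultures 0 Gy, and RNA was taken after 24 h. Polyadenylated RNA was read as long cDNA, amplified by PCR, with Oxford Nanopore sequencing, and the libraries held 4870897 to 9082409 counts. All cultures are of 1 cell line, and the comparison covers a single dose and a single time.

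Collagen chains are made in the endoplasmic reticulum, where enzymes hydroxylate their prolines and lysines and sets of chains fold into a triple helix. Fibrillar collagens such as types I and V form the cables of connective tissue, type IV forms the mesh of basement membranes, type VI forms beaded filaments, type VII anchors epithelium to the tissue beneath, and type VIII is a short-chain collagen that forms hexagonal lattices. In brain, collagen lies mainly in the basement membranes of vessels and in the meninges.

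The libraries were checked against the cell type label. CX3CR1, P2RY12, TMEM119, ITGAM and TYROBP, which define microglia, were at 0 counts in all 6 libraries. Of 12 fibroblast and pericyte markers 6 were tested, of which 3 were higher and 2 lower at an adjusted p under 0.05 (11.6% and 14.1% of all genes were), and their summed level was 194 to 219 CPM in control and 177 to 207 CPM in irradiated cultures, with LUM at 0. CPM are counts per library scaled to a common size after TMM normalization. The 4 endothelial markers summed to at most 0.723 CPM with CDH5 at 0, and the 4 astrocyte and neuron markers to at most 3.33 CPM with AQP4 at 0. The 4 epithelial markers summed to 305 to 335 CPM in control and 236 to 253 CPM in irradiated cultures, with KRT8 and KRT18 lower. Nearly all of that sum was KRT8 and KRT18, as EPCAM had 0 to 4 and CDH1 0 to 2 counts per library. The part of these cell types in the collagen values was not tested. In bulk libraries, fewer cells of a type and less RNA per cell cannot be told apart.

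A pair of sequences is shown because the results on COL8A1 and on the COL4A1 and COL4A2 pair refer to them. The first is the last 200 bases of ENST00000474648, the transcript that took most COL8A1 counts. They lie at chr3:99703419-99703618 on the plus strand of GRCh38, in the last exon of that transcript (chr3:99703307-99703618, 312 bases) in GENCODE release 29. None of the 7 other COL8A1 transcripts of that release holds a base of this exon.

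COL8A1 ENST00000474648 end: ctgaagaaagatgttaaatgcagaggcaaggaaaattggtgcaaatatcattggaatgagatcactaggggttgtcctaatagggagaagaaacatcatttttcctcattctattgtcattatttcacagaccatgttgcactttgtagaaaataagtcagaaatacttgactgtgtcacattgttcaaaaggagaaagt

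The second is the RefSeq promoter window of COL4A2, from 250 bases before to 50 bases after the start, at chr13:110307034-110307333 on the plus strand of GRCh38.p14. Of its 300 bases, 226 (chr13:110307108-110307333) are also in the window of COL4A1, which is transcribed in the opposite direction from a start 127 bases away. Capitals mark the CCAAT match, which lies 105 bases before the COL4A2 start.

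COL4A2 promoter window: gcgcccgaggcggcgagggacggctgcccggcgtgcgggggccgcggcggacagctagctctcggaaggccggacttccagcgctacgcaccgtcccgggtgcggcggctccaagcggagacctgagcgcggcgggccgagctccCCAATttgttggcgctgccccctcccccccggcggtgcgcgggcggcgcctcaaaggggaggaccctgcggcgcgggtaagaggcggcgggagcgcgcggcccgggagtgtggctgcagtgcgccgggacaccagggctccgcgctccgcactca

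Promoter windows were found for 13 of the 18 tested chains, with 15 windows in all. CCAAT, read on both strands, was in the windows of COL11A1, COL4A1, COL4A2 and COL4A5, that is 4 of 15 member windows, against 34.6% of all 35116 windows. The marked CCAAT site lies in the 226 bases that COL4A1 and COL4A2 share and is counted for both, so their windows are not independent. GGGCGG was in 13 of 15 member windows and in 45.0% of all windows, and TATAAA in 4 of 15 (COL7A1, COL13A1, COL18A1 and COL6A2) and in 11.5% of all. None of these motifs contains another, and a match is a description of the letters and not of a bound site.

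To ask how much collagen RNA the cells held in all, collagen counts were expressed as a percent of each library's kept counts. The share was 0.0389%, 0.0351% and 0.0427% in control cultures 1, 2 and 3 and 0.0752%, 0.0587% and 0.0621% in irradiated cultures 1, 2 and 3. The groups did not overlap, and the means were 0.0389% ± 0.00381 and 0.0653% ± 0.00869 (SD, n = 3 each), a ratio of 1.68. On the TMM scale the summed collagen level moved less, from 429 to 448 CPM in control to 510 to 587 CPM in irradiated cultures. COL1A1, the main chain of type I collagen, made up 40.3%, 39.0% and 42.7% of the collagen counts in control and 36.5%, 38.3% and 33.1% in irradiated cultures.

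Most of the 18 tested chains had a log2 fold change (irradiated over control) above 0, 16 of 18 on the TMM scale, where 54.8% of all tested genes did. Across the alternatives with all 18 tested the count ran from 14 (length trend removed, without control 2, without irradiated culture 1) to 17 (library totals alone, where 78.9% of all genes were above 0). With an adjusted p under 0.05 and a log2 fold change beyond 1 in size, 4 chains were higher (COL1A2, COL4A2, COL6A1 and COL7A1) and 1 was lower (COL8A1). That is 22.2% of the members in the upward direction against 4.0% of all tested genes, and 5.56% in the downward direction against 1.7%. With the adjusted p alone 8 chains were higher, 44.4% of the members against 11.6% of all genes, the added ones being COL4A1, COL5A1, COL6A2 and COL18A1, and COL8A1 remained the only lower one against 14.1% of all genes. In 10 of the 18 (55.6%) every irradiated culture lay above every control culture, against 21.5% of all genes, and in 1 every irradiated culture lay below, against 21.3%. The median log2 fold change was 0.68 over the 18 chains and 0.08 over all genes. These counts include COL8A2, which passed the filter only through the irradiated cultures and is 1 of the 10 without overlap. Of the 18 chains, 14 reached 10 counts in 3 control libraries. COL1A2, COL11A1 and COL16A1 reached 10 counts in 2 control libraries, so they passed only with irradiated cultures counted. COL1A2 is 1 of the 4 higher chains past both limits and 1 of the 10 without overlap.

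**Figure D1:**
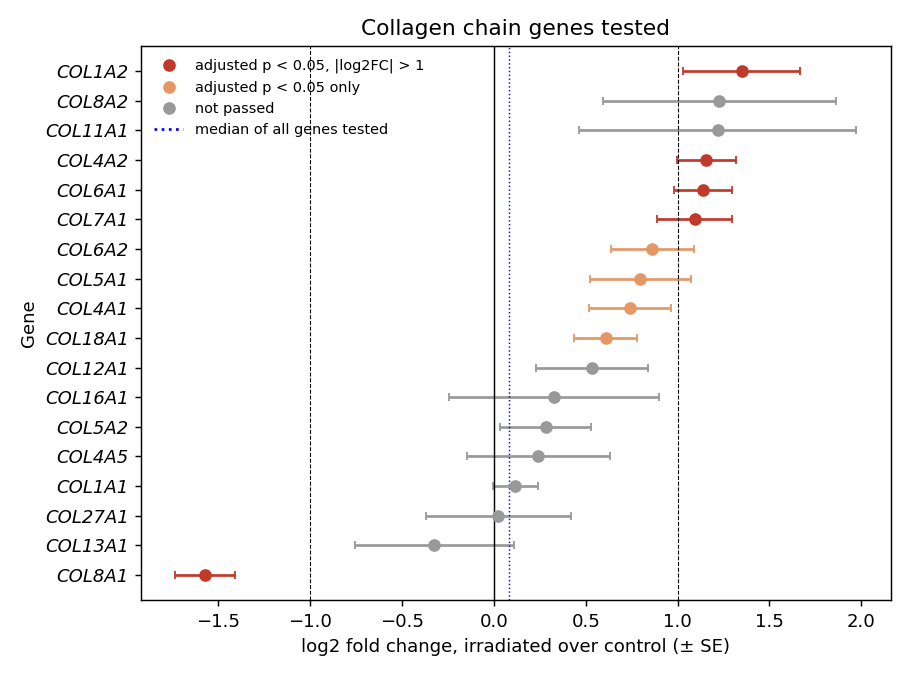
Log2 fold changes (irradiated over control, x axis) of the 18 tested collagen chains, ordered by size, with points for the edgeR estimate, bars for 1 standard error, dashed lines at the limits of −1 and 1 and a dotted line at the median of all tested genes. COL8A1 lies alone at −1.57, COL1A2 lies highest of the chains past both limits at 1.35, and library totals in place of TMM moved COL13A1 from −0.33 to 0.13.

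Most tested collagens have long transcripts, and genes with longer transcripts had higher log2 fold changes in these libraries. The median member length was 4519 nt, against 2689 nt for all kept genes, and 12 of the 18 members were 4000 nt or longer. All genes of 4000 nt or longer had a median log2 fold change of 0.33 and the 12 members 0.57, while all genes of 3000 to 4000 nt had 0.23 and the 4 members there 0.80. The shorter members were COL4A2, at 1.16 against a median of 0.06 for all genes of 2000 to 3000 nt, and COL8A1, at −1.57 against −0.22 for all genes of 1000 to 2000 nt. With each library's trend of counts on length removed, the members' median was 0.53, COL1A2, COL4A2, COL6A1, COL7A1 and COL6A2 were the 5 higher chains with an adjusted p under 0.05, and COL8A1 was still lower. Past both limits 3 chains were higher in that fit, as COL7A1 was under the limit on the fold change. COL1A1 was −0.08 there, against 0.12.

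Among fibrillar chains, 6 were tested, 2 rose and 4 did not pass the test. COL1A2 encodes the second chain of type I collagen and had 2.26, 3.52 and 3.46 CPM in control and 8.56, 6.88 and 8.69 CPM in irradiated cultures. Every irradiated culture was above every control culture, on 9 to 28 counts per control library and 46 to 68 per irradiated library. COL1A2 rose with a log2 fold change of 1.35 (SE 0.319, adjusted p = 0.00636 from the quasi-likelihood test of edgeR).

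COL1A1, its partner chain, had 185, 173 and 197 CPM in control and 221, 206 and 174 CPM in irradiated cultures. The groups overlapped, with irradiated culture 3 among the controls. The log2 fold change was 0.12 (SE 0.123, adjusted p = 0.515, edgeR), and scaling by library totals gave 0.57 (adjusted p = 0.00902).

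COL5A1 and COL5A2 are chains of type V collagen, which sits inside type I fibrils. COL5A1 had 7.53, 4.59 and 5.81 CPM in control and 11.1, 9.72 and 9.84 CPM in irradiated cultures, without overlap, and rose with a log2 fold change of 0.80 (SE 0.276, adjusted p = 0.0437, edgeR). Of 16 alternative fits 9 lost this call, among them 5 of the 6 that leave out a library, with an adjusted p up to 0.152 without control 2. COL5A2 had 14.05, 11.6 and 8.28 CPM in control and 15.0, 14.1 and 11.6 CPM in irradiated cultures, which overlapped (log2 fold change 0.28, adjusted p = 0.426, edgeR).

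Of the other fibrillar chains, COL11A1 (log2 fold change 1.22, adjusted p = 0.247, edgeR) had 34 counts in irradiated culture 1 and 0 to 12 in each of the other libraries. COL27A1 had 17 to 28 counts in every library, and its log2 fold change of 0.03 was negative in 6 of 16 alternative fits.

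Of the basement membrane chains, the ubiquitous type IV pair COL4A1 and COL4A2 rose and COL4A5 did not pass the test. COL4A2 had 35.6, 26.3 and 27.1 CPM in control and 69.4, 59.2 and 68.0 CPM in irradiated cultures. The lowest irradiated culture was far above the highest control, and the log2 fold change was 1.16 (SE 0.162, adjusted p = 0.000478, edgeR). COL4A1 had 26.8, 15.9 and 29.7 CPM in control and 48.2, 40.4 and 32.6 CPM in irradiated cultures. The groups did not overlap, but control 3 and irradiated culture 3 lay close together. The log2 fold change of 0.74 (SE 0.223, adjusted p = 0.0227, edgeR) lost its call without control 2 (adjusted p = 0.0918), without irradiated culture 1 (0.113) and with protein-coding transcripts only (0.0699). That last sum also left out ENST00000714329, ENST00000714330 and ENST00000714331, which have no class in GENCODE release 29 and log2 fold changes of 0.68 to 0.72. It held 36, 36 and 79 of the 107, 104 and 240 control counts. The bodies of COL4A1 and COL4A2 overlap by 1422 bases on opposite strands, and the sources used here do not say whether counting used the strand.

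COL4A5, a chain of the basement membranes of kidney and other tissues, had 3.26, 3.37 and 4.82 CPM in control and 6.82, 3.59 and 3.32 CPM in irradiated cultures. Irradiated culture 1 alone stood above the controls, and the log2 fold change of 0.24 (adjusted p = 0.683, edgeR) was −0.16 without it.

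Both tested chains of type VI collagen, the beaded filament class, rose. COL6A1 had 35.9, 27.996 and 37.9 CPM in control and 84.2, 68.8 and 71.2 CPM in irradiated cultures, with a log2 fold change of 1.14 (SE 0.159, adjusted p = 0.000478, edgeR). COL6A2 had 8.53, 9.64 and 10.4 CPM in control and 19.4, 14.4 and 18.5 CPM in irradiated cultures, again without overlap, with a log2 fold change of 0.86 (SE 0.226, adjusted p = 0.0116, edgeR). The COL6A2 call was lost without irradiated culture 1 (adjusted p = 0.0592) and without irradiated culture 3 (0.0508). The third chain, COL6A3, was not tested, with 12 counts in irradiated culture 3 and 1 or 0 in each of the other libraries.

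COL7A1, the chain of the anchoring fibrils, had 10.03, 13.0 and 11.2 CPM in control and 23.3, 25.6 and 24.8 CPM in irradiated cultures. The groups lay far apart, and it rose with a log2 fold change of 1.09 (SE 0.202, adjusted p = 0.00162, edgeR). COL18A1, a multiplexin whose end is released as endostatin, had 24.6, 31.7 and 33.5 CPM in control and 46.8, 39.8 and 51.3 CPM in irradiated cultures. COL18A1 rose with a log2 fold change of 0.61 (SE 0.172, adjusted p = 0.0171, edgeR), a call lost without control 1 (adjusted p = 0.0768), irradiated culture 1 (0.0584) or irradiated culture 3 (0.0907). It overlaps SLC19A1 on the opposite strand by 20149 bases.

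COL8A1, a type VIII chain, was the 1 tested collagen that fell. It had 89.6, 108.6 and 73.7 CPM in control and 28.1, 32.2 and 31.2 CPM in irradiated cultures. All irradiated cultures lay below all controls, and the log2 fold change was −1.57 (SE 0.162, adjusted p = 9.43e-05, edgeR). COL8A2, the other type VIII chain, had only 4, 4 and 6 counts in control and 10, 12 and 18 in irradiated cultures, and its log2 fold change of 1.23 (SE 0.635) did not pass the test (adjusted p = 0.165, edgeR).

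**Figure D2:**
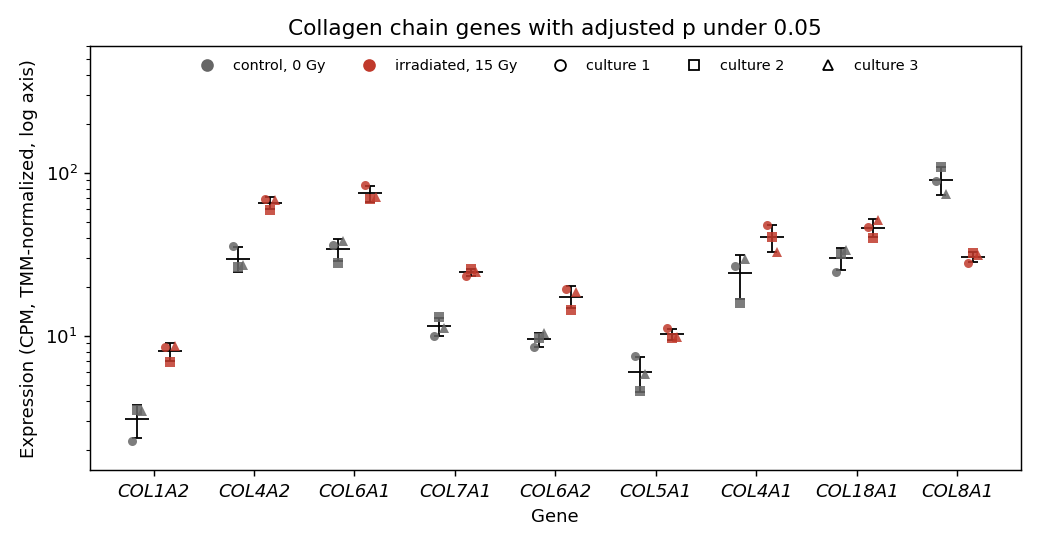
Expression (CPM after TMM normalization, log axis) of the 9 collagen chains with an adjusted p under 0.05 in each culture, with gray symbols for control and red symbols for irradiated cultures, a shape for each culture number, and bars for the mean and SD (n = 3). The groups are apart in all 9, and COL8A1 is the one chain whose irradiated cultures (28.1 to 32.2) lie below the controls (73.7 to 108.6).

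The remaining tested chains did not pass the test. COL12A1, a fibril-associated chain, had 4.01, 4.896 and 5.31 CPM in control and 7.09, 5.68 and 8.05 CPM in irradiated cultures, which did not overlap (log2 fold change 0.53, adjusted p = 0.204, edgeR). COL16A1, of the same class, was at 0.33 (adjusted p = 0.713) with 4 to 24 counts per library, and the transmembrane COL13A1 at −0.33 (adjusted p = 0.615) with 10 to 40 counts.

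The 15 members below the filter had at most 29 counts in any library. COL9A3, a chain of cartilage type IX collagen, had 0 counts in all 3 controls and 12, 2 and 8 in the irradiated cultures. COL17A1, the hemidesmosome collagen, had 0, 8 and 9 counts in control and 9, 29 and 16 in irradiated cultures, and COL11A2 had 3, 1 and 6 against 6, 6 and 12. The other 12 had at most 12 counts in a library, and 7 of them at most 1. None of these was tested.

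Levels of different chains were ordered after division by length, as CPM per kilobase, and the order depends on that division. In control cultures the order was COL8A1 at 48.7, COL1A1 at 27.7, COL6A1 at 10.7, COL4A2 at 9.92, COL4A1 at 6.48 and COL18A1 at 5.78 CPM per kilobase. In irradiated cultures COL1A1 led at 30.1, followed by COL6A1 at 23.5, COL4A2 at 21.9, COL8A1 at 16.4, COL4A1 at 10.8 and COL18A1 at 8.89. The place of COL8A1 rests on the short length of its most abundant transcript, which is described below by its own counts. Without the division COL1A1 led in both groups. Its mean was 184.8 CPM against 90.6 for COL8A1 in control, and 200.4 against 30.5 CPM in irradiated cultures.

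Chains of one collagen type can assemble with each other, and some also form trimers of a single chain. The ratio of partner chains was computed within each library, where scaling between libraries plays no part. Of 11 listed pairs, 5 had both chains tested. COL1A2 counts were 1.29%, 2.08% and 1.79% of COL1A1 counts in control and 3.90%, 3.37% and 5.02% in irradiated cultures. The groups did not overlap, and the log2 ratio was 1.26 higher in irradiated cultures (SE 0.264, 2-sided exact permutation p = 0.1, the smallest that 3 against 3 cultures can give, adjusted 0.25 over the 5 pairs). COL1A2 reached 10 counts in 2 control libraries and passed the filter only with irradiated cultures counted, so its p is not free of that selection.

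COL8A2 counts were 1.26%, 0.633% and 1.09% of COL8A1 counts in control and 4.99%, 5.80% and 7.57% in irradiated cultures. The log2 ratio was 2.66 higher, and 1.95 higher when only protein-coding transcripts of both genes were counted. COL8A2 was kept only for its irradiated counts, so this ratio is a description and its p is not given. That p did enter the adjustment over the 5 pairs. The other ratios overlapped between the groups: COL4A2 over COL4A1 differed by 0.38 (SE 0.304, exact permutation p = 0.4), COL5A2 over COL5A1 by −0.51 (SE 0.252, p = 0.2) and COL6A2 over COL6A1 by −0.28 (SE 0.179, p = 0.2) on the log2 scale.

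**Figure D3:**
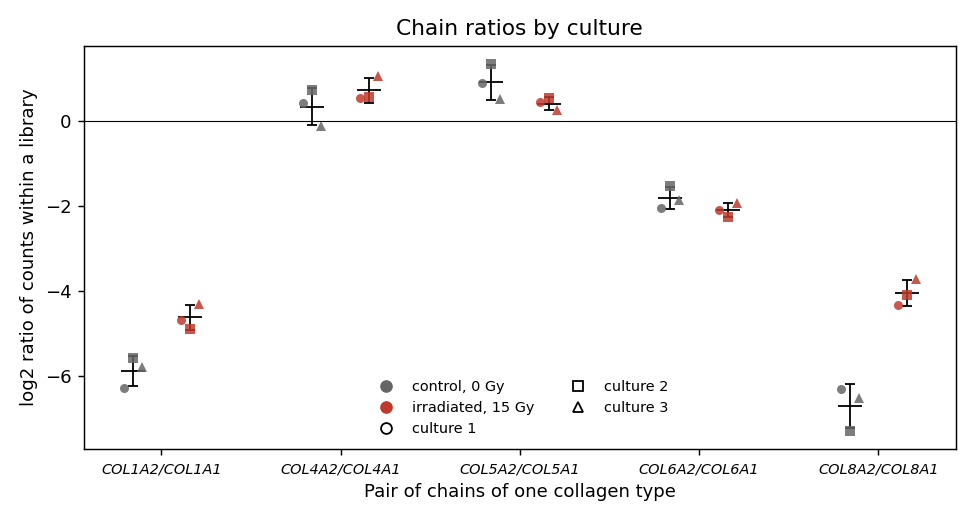
Log2 ratio of partner chain counts in each culture (y axis) for the 5 collagen types with both chains tested, control in gray and irradiated in red, with bars for the mean and SD (n = 3). The groups do not overlap for COL1A2 over COL1A1, nor for COL8A2 over COL8A1, where COL8A2 was kept only for its irradiated counts.

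At the level of single transcripts, 15 of 83 collagen transcripts (18.1%) were higher past both limits, against 3.36% of all tested transcripts, and 3 (3.61%) were lower, against 4.33%. With the adjusted p alone 29 (34.9%) were higher against 8.54%, and 5 (6.02%) lower against 10.7%. The 15 belonged to COL4A2 (7), COL7A1 (4), COL1A2 (2) and COL6A1 (2), and the 3 lower ones all belonged to COL8A1. The 7 of COL4A2 had log2 fold changes of 1.08 to 1.29, and the 4 of COL7A1, among them the full-length protein-coding ENST00000328333, 1.00 to 1.16. In COL6A1 they were the protein-coding ENST00000361866 (log2 fold change 1.06) and the non-coding ENST00000498614 (1.14). The most abundant transcript of COL4A2 was ENST00000400163 (log2 fold change 1.11, adjusted p = 7.22e-05) and that of COL7A1 was ENST00000681320 (log2 fold change 1.02, adjusted p = 0.00541). It was ENST00000714329 (log2 fold change 0.70, adjusted p = 0.0255) for COL4A1 and ENST00000300527 (log2 fold change 0.81, adjusted p = 0.00697) for COL6A2. In COL5A1, ENST00000371817 (log2 fold change 0.75, adjusted p = 0.0436) and ENST00000371820 (0.75, adjusted p = 0.0438) were level. Their counts differed only in irradiated cultures 2 and 3, with 33 and 36 against 32 and 37. In COL7A1, ENST00000681320 and ENST00000328333 differed only in irradiated culture 1, with 35 against 34 counts. All were tested with edgeR.

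Transcripts of one gene are not independent here, since reads that fit several transcripts are divided among them. Transcripts whose counts stayed within 2 counts or 10% of a partner transcript in every library held 100% of the counts of COL5A2, 98.2% of COL5A1, 96.5% of COL18A1, 94.4% of COL6A1, 72.7% of COL4A1 and 59.7% of COL7A1. In COL18A1 these were 4 transcripts, the most abundant being ENST00000651438 (log2 fold change 0.55, adjusted p = 0.0452).

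COL1A2 had a pair of tested transcripts, the protein-coding ENST00000297268 with 7, 18 and 18 counts in control and 40, 34 and 42 in irradiated cultures, and the retained-intron ENST00000481570 with 2, 5 and 10 against 24, 12 and 26. Both rose, with log2 fold changes of 1.14 (adjusted p = 0.00134) and 1.56 (adjusted p = 0.00163, edgeR), and the difference in their use was not called (isoform fraction of the retained-intron transcript 26.6% in control and 33.9% in irradiated cultures).

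Isoform usage, the fraction of a gene's counts held by each transcript, was called at an adjusted p under 0.05 with a difference of at least 10 percentage points. No collagen transcript gained use by that rule (0.269% of all tested transcripts did), and 1 of 83 lost it, against 0.135% of all. It was COL8A1 ENST00000474648, whose end is printed above.

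ENST00000474648 had 231, 474 and 351 counts in control and 90, 106 and 92 in irradiated cultures. It fell with a log2 fold change of −2.19 (SE 0.176, adjusted p = 1.99e-30, edgeR). That p rests on a variance shared over transcripts, while this transcript ranged from 43.6 to 75.5 CPM in control cultures. ENST00000474648 held 64.7%, 66.8% and 58.9% of the COL8A1 counts in control and 42.9%, 49.3% and 37.7% in irradiated cultures. The difference was −20.2 percentage points (usage adjusted p = 0.0379, diffSpliceDGE of edgeR). The usage call was lost without control 1 (adjusted p = 0.206), control 2 (0.13), irradiated culture 1 (0.188) or irradiated culture 3 (0.404), with differences of −17.4 to −19.9 percentage points. With counts divided by transcript length the difference was −10.4 percentage points.

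This transcript of 841 nt is annotated as a processed transcript without a reading frame. Its 5 exons hold 0 coding bases, and it ends 87065 bases before the first coding base of COL8A1 at position 99790683, so it carries no part of the collagen protein. The processed-transcript class as a whole held 76.8%, 79.4% and 70.6% of COL8A1 counts in control and 59.5%, 60.5% and 55.7% in irradiated cultures, without overlap (exact permutation p = 0.1, the smallest possible). Protein-coding transcripts held 16.5%, 14.1% and 19.3% in control and 25.2%, 26.5% and 29.5% in irradiated cultures. The rest was ENST00000652472, with a mean of 7.76% in control and 14.3% in irradiated cultures. It has no class in GENCODE release 29 and is in neither the processed-transcript nor the protein-coding values.

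**Figure D4:**
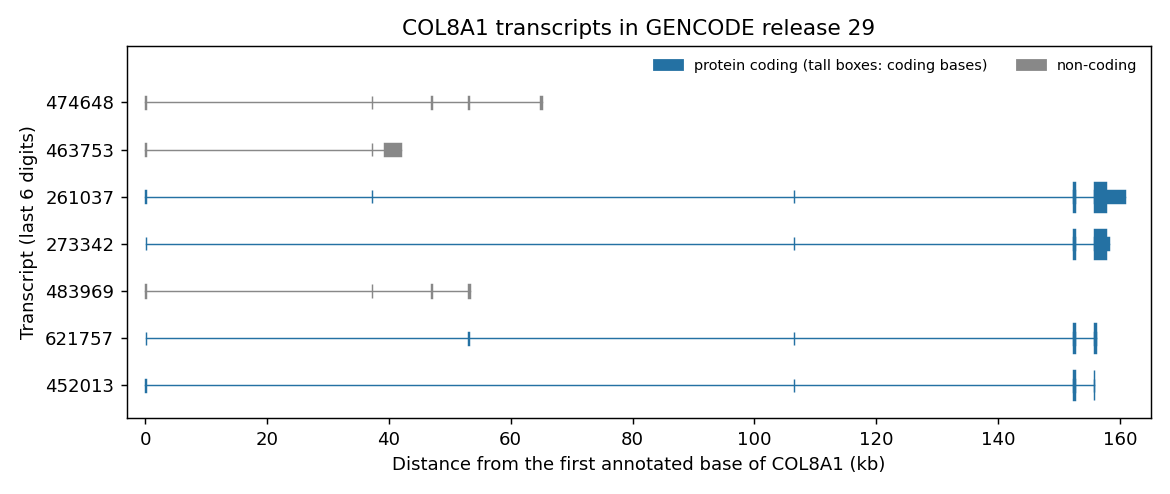
Exons of the COL8A1 transcripts of GENCODE release 29 that were tested, drawn to scale by distance from the gene's start, with coding parts drawn taller. ENST00000474648 ends in an exon of 312 bases of its own, before the coding exons.

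The protein-coding transcripts of COL8A1 were lower as well. Summed, they were at 14.8, 15.3 and 14.2 CPM in control and 7.09, 8.52 and 9.21 CPM in irradiated cultures, a log2 fold change of −0.83 (SE 0.23, adjusted p = 0.0152, edgeR). All COL8A1 transcripts except ENST00000474648 together were at 32.7 ± 3.05 CPM in control and 17.3 ± 1.88 CPM in irradiated cultures (SD, n = 3), which is −0.92 on the log2 scale (SE 0.183, adjusted p = 0.00237, edgeR). Both sums passed the adjusted p and missed the limit on the fold change, so both estimates lie under a 2-fold fall. Of the other transcripts, ENST00000463753 (−1.15) and ENST00000483969 (−2.25, on 1 to 14 counts per library) were past both limits, and ENST00000652472 gained 6.58 percentage points of use (adjusted p = 0.0132), under the limit of 10.

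**Figure D5:**
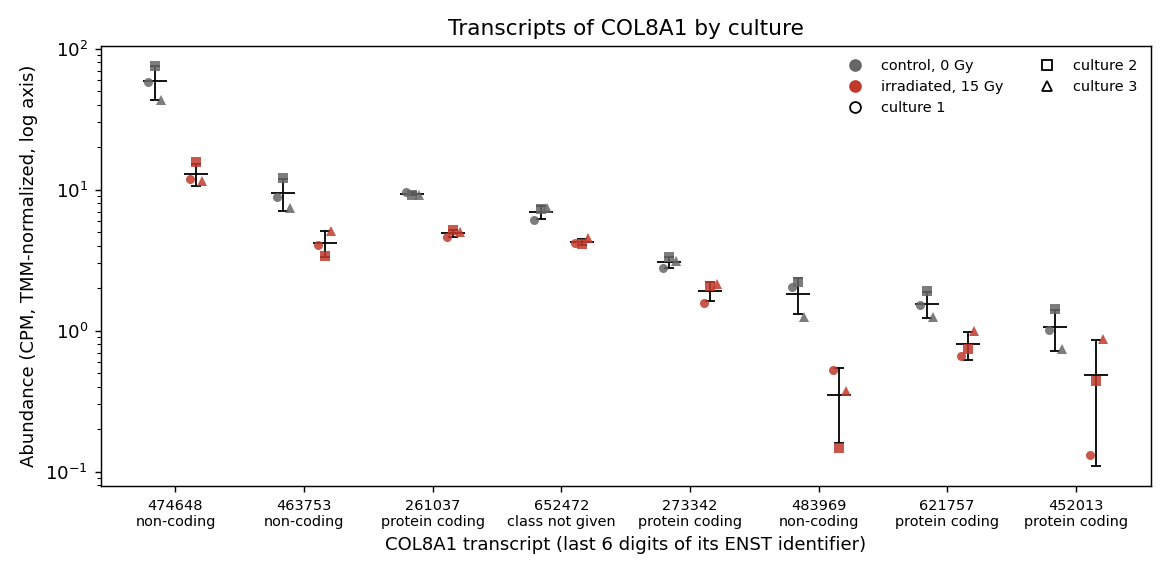
Abundance (CPM after TMM normalization, log axis) of the 8 tested COL8A1 transcripts in each culture, named by the end of their identifiers, control in gray and irradiated in red, with a shape for each culture number and bars for the mean and SD (n = 3). ENST00000474648 is highest in control (mean 59.2 CPM) and lies at 13.0 CPM in irradiated cultures.

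The enzymes that process collagen were counted next. Of 19 genes for folding and modification 16 were tested, and 7 rose and 1 fell at an adjusted p under 0.05 (11.6% and 14.1% of all genes did), with a median log2 fold change of 0.63 against 0.08 for all genes. PLOD2, a lysyl hydroxylase (0.76, adjusted p = 0.00351), P4HA2, a prolyl hydroxylase subunit (0.72, adjusted p = 0.00096), and SERPINH1, the collagen chaperone HSP47 (0.71, adjusted p = 0.0021), rose, while PPIB, a prolyl isomerase (−0.76, adjusted p = 0.00143, edgeR), fell. Their summed level went from 4062 to 4563 CPM in control to 3458 to 3752 CPM in irradiated cultures, so the sum and the median had opposite directions. PPIB was the most abundant of the tested genes, with a mean of 3081 CPM in control and 1823 CPM in irradiated cultures. The fall of PPIB alone was larger than that of the sum.

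Of 19 genes for export, propeptide cleavage and cross-linking 14 were tested, and 2 rose (14.3%, near the 11.6% of all genes) and 0 fell. They were LOX, which cross-links collagen (log2 fold change 0.52, adjusted p = 0.0382), and SEC23A, a coat protein of export vesicles (0.42, adjusted p = 0.0394, edgeR), and the median was 0.18. Of 11 collagen receptors 7 were tested, with DDR1, a receptor tyrosine kinase for collagen (1.12, adjusted p = 0.00463), and ADGRG1 (0.85, adjusted p = 0.00564, edgeR) higher (2 of 7, or 28.6%, against 11.6% of all genes) and none lower, and LAIR1 and GP6 at 0 in all libraries. Of 7 collagen-degrading proteases 2 were tested, MMP14 (0.35) and MMP1 (0.12), and neither passed the test, while MMP8, MMP9 and MMP13 were at 0.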

How the data were processed

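RNA of 6 HMC3 cultures was sequenced, 3 per group. The authors aligned reads with minimap2 and quantified them with Salmon on GRCh38 (versions not given in the sources used here), and the deposited counts are whole numbers for each transcript in each library. The labels name molecular identifiers in the kit, and no source used here states that they were collapsed, so reads may hold PCR copies. Precision is limited by depth: a chain under 10 CPM rests on few reads. The labels name replicates and the paper describes them as independent cultures, so gene p-values measure the spread between cultures. In the transcript fit the p-values rest on a variance shared over transcripts and not on the spread of each transcript, so very small ones overstate the evidence from 3 cultures per group.

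Transcripts with 3 counts in 1 or more libraries were kept in genes that reached 10 counts in 3 or more libraries and kept 2 or more transcripts. Kept counts were summed per gene and tested with edgeR 4.0.16 in R 4.3.3 (TMM, glmQLFit robust, glmQLFTest), with Benjamini-Hochberg adjustment over all features. The SE was obtained from the F statistic (size of the log2 fold change over the root of F). Usage was tested with diffSpliceDGE, and ratios (0.5 count added) by exact permutation. Lengths and classes came from GENCODE release 29 (70.2% of kept transcripts, 86% of their counts). Sums of protein-coding transcripts left out member transcripts absent from that release. Alternatives used DESeq2 1.42.0, limma 3.58.1, other scaling, filters, a length correction, a replicate block and each library left out.

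The members and lists were chosen with earlier results of these data known. Every tested member is named. Members with an adjusted p under 0.05 and their partner chains are given per library, their transcripts past the limits are named or counted, and at most 4 genes per other list are named by smallest adjusted p. Replicate numbers do not pair the cultures. Proteomic data were not analysed here. One marker result is not reported here.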

Additional observations from a re-analysis of the deposited data

How the results depend on the processing

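Of the 9 collagen genes with an adjusted p under 0.05, COL8A1, COL4A2, COL6A1, COL7A1 and COL1A2 passed it in every alternative, and COL18A1, COL4A1, COL5A1 and COL6A2 lost it in one or more. Past both limits, 4 genes were higher and 1 lower in the reported fit, and leaving out 1 library gave 4 and 1 each time. The number higher was 3 with the length trend removed, and 3 with 10 counts in all libraries, where COL1A2 was not tested. Library totals gave 9 higher, since that scaling moved the median of all genes from 0.08 to 0.53, and the lower count was 0 with protein-coding transcripts only and 0 without the most abundant COL8A1 transcript (both added after seeing the data). With the adjusted p alone, 8 genes were higher, against 7 with 10 counts in all libraries and 5 with the length trend removed. With 1 library left out the number was 4 to 7 (4 without irradiated culture 1, 5 without irradiated culture 3).

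Of 29 transcripts higher at the adjusted p alone, DESeq2 called 11, no filter 17 and the fits without 1 library 16 to 28, the lowest being 18 without control 2, 16 without irradiated culture 1 and 19 without irradiated culture 3. Of 5 lower, DESeq2 called 3 and library totals 2. Past both limits, library totals called 37 transcripts higher, against 15. The 1 switched isoform was 0 to 1 with 1 library left out. The COL8A2 over COL8A1 log2 ratio difference was 1.95 with protein-coding transcripts only, against 2.66 (added after seeing the data). The cause of these differences was not tested.

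Among log2 fold changes that missed the threshold, signs turned for COL13A1 (0.13 with library totals), COL1A1 (−0.080 with the length trend removed), COL4A5 (−0.16 to 0.44 with 1 library left out, lowest without irradiated culture 1), COL16A1 (−0.12 to 0.70, lowest without control 2) and COL27A1 (−0.014 with DESeq2, −0.0091 with RLE factors, −0.18 with the length trend removed, and −0.14 to 0.30 with 1 library left out, being negative without control 2, control 3 or irradiated culture 1).

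Samples with the same replicate number did not deviate together (r = −0.0062, 0.125 and 0.0336). With the replicate block, 8 genes were higher and 1 lower at the adjusted p alone, 4 and 1 past both limits, and no collagen gene call changed. Transcripts past both limits were 17 higher and 3 lower under the block. Chains under 10 counts per library are limited by depth.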
